A study of Mus musculus with 27 samples.

Results

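The comparison described here is between microglia of germ-free (GF) wild-type mice at day 7 after intracerebral hemorrhage (ICH) and microglia of GF wild-type sham mice, also labelled day 7. Its members were chosen by the labels of the samples: 3 libraries of the hemorrhage group and 3 of the sham group, 6 of the 27 libraries of the study. In the hemorrhage group bleeding was induced with collagenase, an enzyme that breaks vessel walls, and the sham group is labelled with PBS in its place. Both groups lived without microbes, so the comparison holds the absence of a microbiota constant and varies the injury. The other libraries come from specific pathogen-free (SPF) mice, mice given antibiotics (ABX), and GF mice at day 3, and their day 7 responses are used at the end for comparison. RNA came from sorted cells of brain tissue around the hematoma and was amplified with a kit for very small inputs. The labels do not say which sort markers were used, whether the 3 libraries of a group came from separate animals, or how old the mice were, so p-values measure the spread between these libraries, which may be partly technical.

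Microglia are the resident macrophages of the brain. In healthy tissue they depend on signalling through Csf1r and on transforming growth factor beta (TGF-beta), and they express a set of homeostatic genes such as P2ry12, Tmem119 and Cx3cr1. After injury they clear cells, blood and lipid debris, and many lower that homeostatic set while they raise lysosomal, lipid-handling and antigen-presentation genes, a state known as disease-associated. Microglia of germ-free mice are known for an immature profile and a muted answer to inflammatory stimuli.

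The libraries differ in gene detection and GC trend along with the groups, and every result below stands beside that fact. The hemorrhage libraries held 53873467, 72415932 and 59668884 counts, and the sham libraries 47984762, 41664864 and 70358974. With at least 1 count, 9489, 11043 and 9185 genes were detected after hemorrhage, and 10325, 11925 and 18408 in sham, against 13536 to 17051 in the 18 libraries outside both groups and ABX ICH day 7. The totals overlap between groups. Sham replicate 1 lies within the hemorrhage range of detected genes, sham replicate 2 above it and sham replicate 3 far above it. Among 1710 genes with a mean of at least 50 counts scaled to library size (CPM) in each of the 7 other groups, 13.2%, 12.7% and 19.5% were under 5 CPM in the hemorrhage libraries and 28.2%, 4.5% and 0% in sham. The same 18 libraries had at most 0.0585%. The genes were chosen by their level in the groups of those 18 libraries, so a low share there is in part set by the choice. The 2 compared groups had no part in it. A GC trend was computed per library as the median centred log2 level of the 20% of abundant genes with the highest GC content minus that of the 20% with the lowest. It was −2.03, −3.19 and −2.53 after hemorrhage and 1.73, 0.62 and 1.22 in sham, without overlap, and between −1.43 and 1.56 in the 21 libraries outside both groups. Mitochondrial-genome transcripts took 4%, 3.69% and 6.45% of counts after hemorrhage against 1.17%, 1.48% and 1.32% in sham. Over 2245 abundant genes, log2 levels correlated between replicates at r = 0.54 to 0.62 within the hemorrhage group and at 0.27 to 0.67 within sham, which describes genes and not independent samples. The GC trend and the group cannot be told apart, so named results are given as counted and, where the sign or call changes, also with offsets that take a GC curve out of each library.

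**Figure D1:**
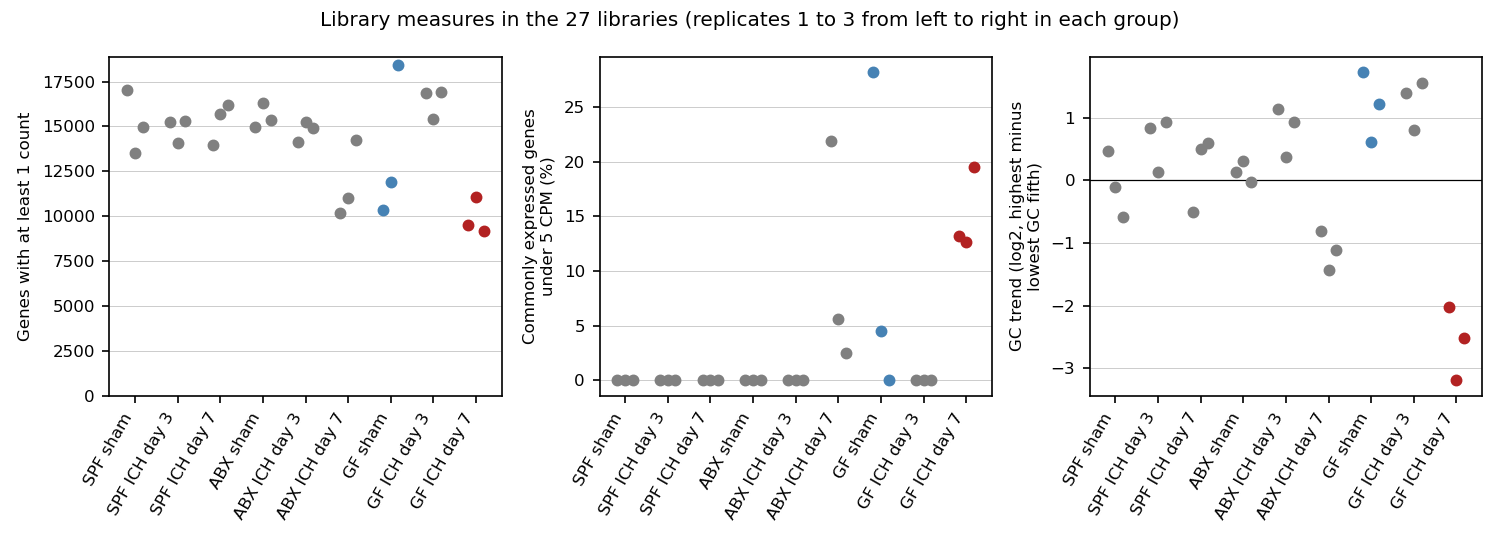
Detected genes (left), the percent of 1710 commonly expressed genes under 5 CPM (middle) and the GC trend on the log2 scale (right) in each of the 27 libraries, by group. The 3 GF ICH day 7 libraries have 9185 to 11043 detected genes and the 3 lowest GC trends, and GF sham replicate 1 has the highest percent of commonly expressed genes under 5 CPM.

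Between the groups, 298 of 17573 tested genes were higher after hemorrhage (1.7%) and 2238 were lower (12.7%) at an adjusted p under 0.05. Most of the lower genes were nearly absent after hemorrhage: 2035 of the 2238 were under 5 CPM in all 3 hemorrhage libraries and 564 had no count there. Weight is therefore put on 2245 abundant genes, those with a mean of at least 100 CPM over the 6 libraries after scaling by trimmed means (TMM), the scale of all gene levels below. Sums of marker lists are instead CPM per library total, without TMM. Of these, 237 were higher (10.6%) and 295 lower (13.1%), and their median log2 fold change was 0.10 against −2.10 over all tested genes. The cut is a mean over both groups, so a gene can pass it on the level of 1 group alone. Of the 295 lower genes, 124 were under 5 CPM in all 3 hemorrhage libraries. Of the 237 higher genes, 8 were under 5 CPM in all 3 sham libraries. For each gene list below, the percent of members called stands beside its count, to be read against the 1.7% higher and 12.7% lower of all tested genes. All 3 hemorrhage libraries lay above all 3 sham libraries for 477 abundant genes (21.2%) and below them for 368 (16.4%). DESeq2 size factors in the same fit moved the median of abundant genes to −0.51 and the abundant calls to 144 higher and 388 lower. Leaving out sham replicate 1 moved that median to 0.77 and the abundant calls to 321 higher and 199 lower. Which direction holds more abundant calls thus depended on that library. It also depended on the tool: with all libraries kept, limma voom gave 242 higher and 178 lower abundant calls, and DESeq2 273 and 561. Without sham replicate 3 the count of higher genes was 571, without hemorrhage replicate 3 the count of lower genes was 1394, and without sham replicates 1 and 2 together the counts were 157 higher and 2183 lower.

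GC content separated higher from lower genes. In the 20% of abundant genes with the lowest GC content, 31.9% to 42.1%, 105 of 448 genes were higher and 4 lower. In the 20% with the highest, 53.4% to 67.1%, 6 of 448 were higher and 153 lower. Across 2238 abundant genes with a known sequence, GC content and the log2 fold change were related at a Spearman rho of −0.53, a description across genes, and at 0.17 with the offsets. With the offsets 78 of the 237 higher abundant genes and 168 of the 295 lower ones were called again. Leaving out each of the 6 libraries in turn kept 128 and 185 in every case, and 51 and 139 met both conditions. Below, a gene is said to keep its call in so many of 15 alternative settings, or of 14 for a gene outside the abundant set, the settings being those of the closing section except the fit of the 6 libraries alone. That fit takes its spread from the 6 compared libraries only. In it 43 of the 237 higher and 139 of the 295 lower abundant genes were called again, so a call kept in all settings may still be lost there.

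**Figure D2:**
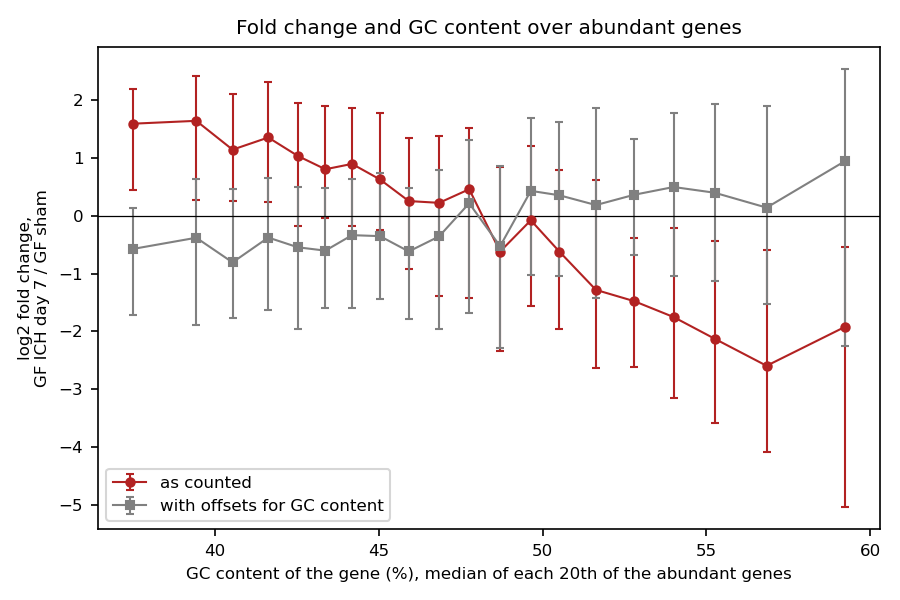
Median log2 fold change (GF ICH day 7 over GF sham, points) and its quartiles (lines) in 20 groups of abundant genes ordered by GC content, as counted and with GC offsets. As counted the median falls from 1.60 in the group of lowest GC content to below 0 at high GC content, and with offsets the slope is weaker and of the other sign.

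Among the clearest rises were genes on a list of disease-associated microglia. Spp1, which encodes the secreted matrix protein osteopontin (mm10 chromosome 5, 104435118 to 104441050, plus strand), was at 15208, 20623 and 24380 CPM after hemorrhage and at 152, 105 and 45.5 CPM in sham. Every hemorrhage library exceeded every sham library many times over, and the log2 fold change was 7.64 ± 0.73 (SE, adjusted p = 2.4e-06) and 6.16 with GC offsets. Its call was lost in 1 of 15 settings, limma voom. Clec7a, the beta-glucan receptor dectin-1, was at 1390, 2296 and 1443 CPM against 7.29, 4.10 and 30.1 CPM, a rise of 6.95 ± 0.80 (adjusted p = 1.8e-05). It is annotated as a polymorphic pseudogene in the gene models used and is named here as a member of the disease-associated list. It kept its call in 15 of 15 settings, as did Lilrb4a, an inhibitory leukocyte receptor, and Igf1, a growth factor. Lilrb4a was at 1757, 745 and 776 CPM against 7.29, 49.2 and 15.0 CPM (5.52 ± 0.81, adjusted p = 0.00017), but its exons share 1846 bases with a neighbouring gene model on the same strand, so its counts are uncertain. Igf1 was at 130, 335 and 186 CPM against 3.14, 1.20 and 6.06 CPM (5.97 ± 0.99, adjusted p = 0.00054).

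Of 25 genes on a list of disease-associated microglia, 13 rose (52%, against 1.7% of all tested genes) and 3 fell (12%, against 12.7%), with a median log2 fold change of 1.86, and 13 and 1 with GC offsets. With DESeq2 size factors the counts were 10 and 6, and without sham replicate 1 they were 11 and 2. The list and the genes on it were chosen with earlier results of these data known, so the count is a description. Cst7, a cathepsin inhibitor, was at 397, 958 and 1479 CPM after hemorrhage and 6.24, 89.3 and 52.3 CPM in sham (4.26 ± 0.79, adjusted p = 0.0013). Fabp5, a fatty acid carrier, was at 55.5, 181 and 266 CPM against 1.73, 0.784 and 3.67 CPM (6.34 ± 1.04, adjusted p = 0.00044). The groups did not overlap in either gene. The tetraspanins Cd9 and Cd63, membrane organisers of endosomes and the cell surface, rose by 1.86 ± 0.30 and 1.65 ± 0.35 (adjusted p = 0.00044 and 0.0029), and Cd63 lost its call with DESeq2 and with its size factors. Gpnmb, a lysosomal glycoprotein, was called with 81.6, 0.696 and 193 CPM against 1.29, 0.327 and 2.59 CPM, so that 1 hemorrhage library stood at the sham level. Its call was lost when hemorrhage replicate 3 (adjusted p = 0.07), sham replicate 1 (0.06) or sham replicate 2 (0.077) was left out, within a range of 8.8e-05 to 0.51 over all 14 settings. Lgals3, a galectin, was lost without sham replicate 1 or 2, and Ccl6, a chemokine, without hemorrhage replicate 2 or sham replicate 2. The 3 lower members were Ctsd, Trem2 and Ank, the last of them lost without sham replicate 1. Trem2, the lipid receptor that drives this state, was at 876, 745 and 1423 CPM against 4826, 1227 and 3379 CPM, with overlap (−1.63 ± 0.42, adjusted p = 0.012), a call lost without sham replicate 1 (−1.18) and with GC offsets (−0.50). Tyrobp, its signalling partner, was at 3910, 3811 and 5113 CPM against 2998, 2075 and 3902 CPM and did not pass (0.52 ± 0.31, adjusted p = 0.23), but was called higher with GC offsets (2.73).

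The 12 largest rises among abundant genes, by the naming rule, were Gpr141, Ifi205, Ccr2, Cd209a, Anxa1, Spp1, Ifi204, Plac8, Msr1, Ms4a4c, Igf1 and H2-Aa, with log2 fold changes from 10.49 to 5.81. Gpr141, an orphan receptor, was at 0.484, 233 and 471 CPM against 0.161, 0.174 and 0.15 CPM, so that hemorrhage replicate 1 stood near the sham level, and its call was lost without hemorrhage replicate 3 or any of the sham libraries. Anxa1, a mediator of resolution of inflammation, rose by 7.65 and Ms4a4c by 6.65. Several of these genes mark monocytes and are taken up below.

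Several abundant myeloid genes outside that list kept their calls in 15 of 15 settings. Lyz2, the macrophage lysozyme, was at 5988, 7677 and 5457 CPM against 1344, 551 and 1184 CPM (2.63 ± 0.38, adjusted p = 0.00015). Cd52, a small surface glycoprotein, was at 1536, 1402 and 1876 CPM against 203, 81.9 and 234 CPM (3.21 ± 0.49, adjusted p = 0.00027). The actin-binding peptide Tmsb4x was at 48833, 44671 and 56843 CPM against 17717, 11645 and 15660 CPM (1.74 ± 0.23, adjusted p = 5.6e-05). In all 3 genes the lowest hemorrhage library was above the highest sham library, and with GC offsets the log2 fold changes were 2.62, 4.27 and 1.41. Plek, a substrate of protein kinase C in blood and myeloid cells, rose by 3.61 ± 0.48 (adjusted p = 5.9e-05) and by 1.81 with offsets. Ly86, a partner of a Toll-like receptor family protein, rose by 1.49 ± 0.30 (adjusted p = 0.0024) and lost its call with DESeq2 and with its size factors. Msr1, a scavenger receptor for modified lipoproteins, was at 329, 233 and 311 CPM against 2.54, 1.00 and 4.08 CPM (6.84 ± 1.39, adjusted p = 0.0025), and was lost without sham replicates 1 and 2 together.

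**Figure D3:**
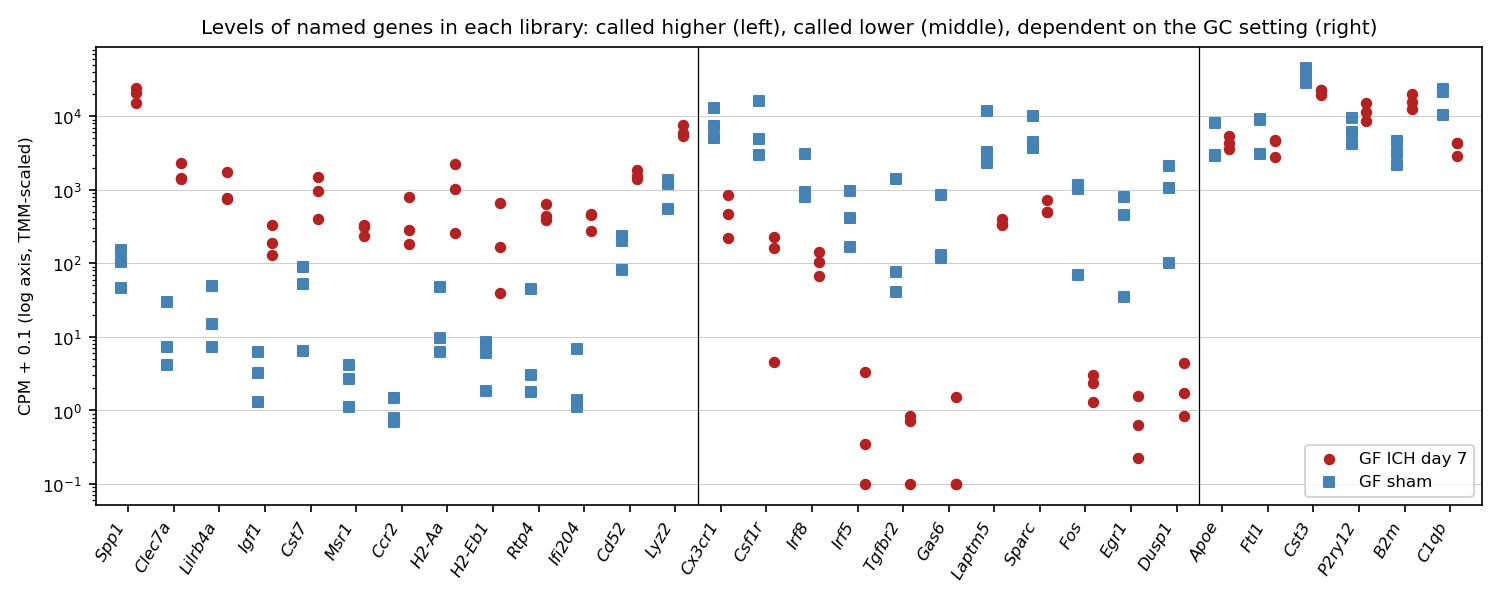
Level of 30 named genes in each library (CPM plus 0.1, log axis), GF ICH day 7 against GF sham, for genes called higher (left), genes called lower (middle) and genes whose sign or call depends on the GC setting (right). Spp1, Clec7a and Igf1 are separated between groups in all libraries, whereas Apoe and Ftl1 overlap.

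Antigen-presentation genes of class II rose in part. These genes encode the proteins that show peptides to CD4 T cells, and their promoters share a conserved Y box, a CCAAT-type element, spelled CTGATTGG on one strand. Because H2-Aa and H2-Eb1 were both called higher, the 150 bases before each RefSeq start (GRCm38.p6) are shown with the Y box in capitals, together with Ifi205, an interferon-inducible gene among the largest rises, whose interferon response element core (GAAA, then any 2 bases, then GAAA) is in capitals.
H2-Aa, chr17:34287824-34287973, minus strand: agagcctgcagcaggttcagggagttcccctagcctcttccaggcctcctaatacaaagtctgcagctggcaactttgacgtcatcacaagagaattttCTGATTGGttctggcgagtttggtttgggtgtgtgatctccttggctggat
H2-Eb1, chr17:34305717-34305866, plus strand: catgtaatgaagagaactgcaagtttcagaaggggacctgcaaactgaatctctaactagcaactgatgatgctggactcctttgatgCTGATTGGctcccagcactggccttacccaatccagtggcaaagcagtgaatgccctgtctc
Ifi205, chr1:174031756-174031905, minus strand: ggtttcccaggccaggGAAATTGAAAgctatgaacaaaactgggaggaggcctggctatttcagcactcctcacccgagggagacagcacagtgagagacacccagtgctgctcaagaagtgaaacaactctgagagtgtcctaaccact
The Y box lies 44 to 51 bases before the start of H2-Aa and 55 to 62 bases before that of H2-Eb1, and the response element core 125 to 134 bases before that of Ifi205. Searched on both strands over 250 bases, the Y box is in 1258 of 32851 RefSeq promoter windows (3.83%) and the core in 978 (2.98%) (overlap of the motifs was allowed). B2m also holds the core, while the windows of Ifitm3 and Ifit2 hold neither motif. Windows for H2-Ab1, Cd74, Rtp4, Ifi204 and Ifi27l2a were not used here.

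H2-Aa, the class II alpha chain, was at 2230, 1026 and 261 CPM after hemorrhage and 9.51, 46.8 and 6.12 CPM in sham (5.81 ± 1.17, adjusted p = 0.0024). H2-Ab1, its beta chain, was at 1794, 495 and 226 CPM against 13.3, 102 and 29.2 CPM (4.12 ± 0.90, adjusted p = 0.004), and H2-Eb1 at 656, 39.3 and 169 CPM against 5.88, 1.76 and 8.46 CPM (5.74 ± 1.16, adjusted p = 0.0024). In each gene the groups were separate, and hemorrhage replicate 1 was highest. All 3 lost their calls with limma voom, and H2-Eb1 also without sham replicates 1 and 2. Of the 9 class II genes tested, these 3 rose (33.3%, against 1.7% of all tested genes). H2-DMb2, a chaperone chain of peptide loading, fell (11.1%, near the 12.7% of all tested genes). The list median was 0.77, or 1.14 with genes absent from a group set at their bound. With GC offsets 5 rose and none fell. H2-DMb2 was at 5.16, 0.395 and 1.85 CPM against 373, 2.53 and 16.8 CPM, so the call rested on sham replicate 1 and was lost without it and with GC offsets. Cd74, the invariant chain, was at 1166, 227 and 92.2 CPM against 307, 99.1 and 113 CPM and did not pass (1.51 ± 0.80, adjusted p = 0.18), but was called higher with GC offsets (3.97). On the class I list of 18 genes, 1 rose (5.56%) and 2 fell (11.1%, near the 12.7% of all tested genes), with a median of −1.12. With GC offsets 2 rose and 1 fell and the median was 0.65, with DESeq2 size factors 1 rose and 4 fell, and without sham replicate 1 the counts were 2 and 2. B2m, the light chain of class I, was at 12494, 20023 and 15732 CPM against 4583, 2178 and 3192 CPM (2.28 ± 0.28, adjusted p = 3.6e-05), a call lost with GC offsets (0.44). Tap1, a peptide transporter, fell by 7.26, and Calr, a loading chaperone, fell by 1.60, a call lost with GC offsets (−0.95). Genes of this region are close copies of each other, and reads could be split between them.

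Of 26 interferon-response genes, 5 rose and 1 fell (median 2.84), and 4 and 1 with GC offsets. These are 19.2% and 3.85% of the list, against 1.7% higher and 12.7% lower over all tested genes. Rtp4, an interferon-induced chaperone of receptors, was at 392, 437 and 647 CPM after hemorrhage and 2.90, 1.68 and 44.4 CPM in sham (4.91 ± 0.95, adjusted p = 0.0018), and kept its call in 15 of 15 settings. Ifi204, of the family of interferon-inducible DNA sensors, was at 453, 272 and 471 CPM against 1.29, 1.00 and 6.72 CPM (7.05 ± 1.5, adjusted p = 0.0034). The groups did not overlap in these genes, nor in Ifitm3, a membrane protein that blocks virus entry (3.66 ± 0.86, adjusted p = 0.0065), and Ifi27l2a (4.50 ± 1.14, adjusted p = 0.011). Ifit2 was at 495, 0.15 and 229 CPM against 3.87, 0.61 and 5.93 CPM, with 1 hemorrhage library below all sham libraries, and its call was lost without hemorrhage replicate 1 (adjusted p = 0.054) and without sham replicate 2 (0.063), within 0.00012 to 0.69 over 15 settings. Off the list, Ifi205 was at 802, 90.2 and 151 CPM against 0.322, 0.85 and 0.164 CPM (9.60 ± 2.62, adjusted p = 0.016), a call lost without sham replicate 3 (0.056, within 1.8e-07 to 0.13). Ifi204 and Ifi205 are near copies, and their counts may be shared. Usp18, the enzyme that removes the ubiquitin-like Isg15 and damps interferon signalling, went the other way at 0.168, 0.508 and 0 CPM against 1.57, 103 and 12.6 CPM (−7.43 ± 1.62, adjusted p = 0.0041). Of 13 genes on a list of antiviral and nucleic acid sensing, none rose and 4 fell (30.8%, against 12.7% of all tested genes), with a median of −1.81. With GC offsets none rose, 3 fell and the median was 0.21. The 4 were Cgas, Ddx58, Mavs and Dhx58, with at most 0.226 CPM in any hemorrhage library. Of these, Dhx58 kept its call in every single left-out setting, Cgas was lost without hemorrhage replicate 1 or 3, Ddx58 without hemorrhage replicate 1 or 2 or sham replicate 3, and Mavs without hemorrhage replicate 1 or 3 or sham replicate 3.

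Among 19 cytokine and chemokine genes, 6 rose (31.6%, against 1.7% of all tested genes) and 1 fell (5.26%, against 12.7%), with a median of 2.51, and 3 and 1 did so with GC offsets. Il1b was at 162, 39.3 and 158 CPM after hemorrhage and 0.161, 0.545 and 0.382 CPM in sham (8.35 ± 2.28, adjusted p = 0.016), and its call was lost without sham replicates 1 and 2 (0.16, within 2.4e-07 to 0.16). Ccl12 and Ccl2, which attract monocytes, rose by 3.11 ± 0.60 and 5.03 ± 1.01 (adjusted p = 0.0017 and 0.0022), and the groups were separate in both. Ccl9 rose by 1.99, Il1a, a second interleukin-1, by 3.44 and Ccl4 by 2.51. With GC offsets Ccl12 (1.39), Ccl9 (0.29) and Il1a (1.70) were not called. Il1a was lost without hemorrhage replicate 2 (adjusted p = 0.053, within 0.0011 to 0.22) and without sham replicate 2 (0.074), and Ccl4 without sham replicate 2 (0.063, within 0.006 to 0.098) or 3 (0.068). Icam1, the adhesion molecule, fell by 7.91 ± 1.26 (adjusted p = 0.00037), from 59.6, 193 and 88.5 CPM in sham to under 1 CPM. Tnf had 0, 24.5 and 0 CPM against 332, 0.174 and 4.53 CPM and did not pass (adjusted p = 0.24). Of 16 inflammasome and NF-kB genes, 2 rose (12.5%) and 3 fell (18.8%), and 1 and 2 with GC offsets. Casp1, the inflammasome protease, rose by 3.00 ± 0.85 and Tlr2 by 2.46 ± 0.64 (adjusted p = 0.021 and 0.012), and Casp1 was lost with GC offsets (1.39). Rela, an NF-kB subunit, Tnfaip3, its inhibitor, and Nlrp3, an inflammasome sensor, fell to under 1 CPM, though 1 sham library of Rela (0.414 CPM) and of Nlrp3 (0 CPM) was as low. Nlrp3 was lost without any of the hemorrhage libraries or without sham replicate 2. Tlr4, the lipopolysaccharide receptor, was at 271, 216 and 332 CPM against 50.6, 39.7 and 42 CPM, separate but not past the threshold (2.63 ± 1.02, adjusted p = 0.083).

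Monocyte markers rose in part. The 12 monocyte markers summed to 1855, 823 and 512 CPM per library total after hemorrhage and 319, 62.3 and 40.1 in sham, where the sum of sham replicate 1 is almost all F13a1. Of the 12, 5 rose (41.7%, against 1.7% of all tested genes) and 1 fell (8.33%, against 12.7%). Ccr2, the chemokine receptor of inflammatory monocytes (mm10 chromosome 9, 124101950 to 124113557, plus strand), was at 790, 283 and 184 CPM after hemorrhage and 1.37, 0.588 and 0.683 CPM in sham (8.90 ± 1.80, adjusted p = 0.0025, 7.01 with GC offsets). Plac8 (6.99), S100a4 (7.06) and Fn1 (10.17) rose too. Fn1 was above 1 CPM in 1 library, hemorrhage replicate 3, and was lost without it or without sham replicate 2 or 3, and Plac8 and S100a4 were lost without sham replicate 2. F13a1 fell, and its call was lost without sham replicate 1 (−2.60) and without hemorrhage replicate 1 or 3. Ccr2 and S100a4 lost their calls without sham replicates 1 and 2. The part of monocyte-derived cells in the disease-associated, class II, interferon and cytokine rises was not tested, and in sorted bulk RNA more cells of a type and more RNA per cell cannot be told apart.

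Neutrophil markers summed to 2571, 2878 and 733 CPM after hemorrhage and 463, 280 and 241 CPM in sham. S100a8, a calcium-binding protein of neutrophil granules, was at 1131, 1512 and 419 CPM against 2.98, 2.16 and 45.9 CPM. S100a9 and Retnlg were likewise separate between groups, yet none of the 3 passed (adjusted p = 0.1, 0.11 and 0.095). Of the 10 neutrophil markers tested only Cxcr2 was called higher (10%, against 1.7% of all tested genes), at 136, 0 and 103 CPM against no count in sham. It was at least 1051-fold higher in the mean when 3 counts per sham library stand for 0. Its call was lost without any one library except hemorrhage replicate 2 (adjusted p = 0.064 to 0.094, within 0.0073 to 0.2). Mmp9, Elane and Mpo had no count in any of the 6 libraries. Among 6 dendritic cell markers 1 rose (16.7%, against 1.7% of all tested genes). Cd209a was at 470, 129 and 166 CPM against 2.82, 0.588 and 0.287 CPM (7.70 ± 2.10, adjusted p = 0.016), a call lost without sham replicate 2 (0.057) or 3 (0.056), within 8.4e-06 to 0.1. No T and NK cell marker was called, with sums of 0.069 to 7.93 CPM after hemorrhage and 0.0834 to 12.7 CPM in sham, and Gzmb and Ncr1 at 0 in all 6 libraries. Neutrophil and dendritic cell markers were not tested for a part in the other results either.

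Other marker lists held few calls, all of them falls, and their part in the results was not tested. Among 8 border-associated macrophage markers F13a1 fell, with list sums of 41.4 to 111 CPM after hemorrhage and 14.0 to 319 CPM in sham. Of 4 tested B cell markers Cd79b and Ighm fell (50%, against 12.7% of all tested genes), with sums of 0.67 to 117 CPM against 488 to 1120 CPM. Pax5 had no count in any of the 6 libraries. Ighm was lost without hemorrhage replicate 1 (adjusted p = 0.058) or sham replicate 1 (0.12), within 3.3e-05 to 0.19. The called markers of neural and other cells were low after hemorrhage. The astrocyte marker Clu (sums 49.6 to 276 against 276 to 621 CPM), the oligodendrocyte markers Mbp and Mag (59.4 to 307 against 139 to 391 CPM) and the choroid plexus marker Folr1 fell to under 2 CPM in every hemorrhage library. The falls were 12.5% of 8 astrocyte, 25% of 8 oligodendrocyte and 16.7% of 6 choroid plexus markers tested. The first and last stand near the 12.7% of all tested genes. Choroid plexus sums ran from 538 to 12835 CPM after hemorrhage and 1073 to 24688 CPM in sham, highest in replicate 3 of both groups and driven by Ttr (8769 and 18978 CPM there). Neuronal (0.166 to 2.5 against 0.167 to 117 CPM), endothelial (0.29 to 35.1 against 0.333 to 20.6 CPM) and erythroid sums (32.3 to 402 against 421 to 1392 CPM) gave no called member. Per library total, the erythroid sum, in bulk hemoglobin genes, was lower in each hemorrhage library than in any sham library. This order does not hold on the TMM scale. The TMM factor was 0.88 in hemorrhage replicate 1 (sum 402 CPM). It was 1.10 and 1.04 in sham replicates 2 and 3 (432 and 421 CPM), so the groups overlap after scaling. Dendritic cell sums were 95.0 to 509 CPM after hemorrhage and 1.88 to 61.1 CPM in sham.

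Homeostatic genes split into members that stayed abundant and members that fell. P2ry12, the purinergic receptor that marks microglia (mm10 chromosome 3, 59216272 to 59262871, minus strand), was at 8721, 15048 and 11458 CPM after hemorrhage and 9422, 4186 and 6150 CPM in sham, overlapping and not past the threshold (0.83 ± 0.36, adjusted p = 0.11), but called lower with GC offsets (−1.31). Cst3, the protease inhibitor cystatin C, was at 22953, 22688 and 19268 CPM against 45419, 27944 and 35366 CPM and did not pass (−0.74 ± 0.26, adjusted p = 0.053), but was called higher with offsets (1.96). These 2 members were thus well detected in all 6 libraries, which does not hold for every member. Sall1 was at 79.6, 0.414 and 0.189 CPM after hemorrhage and 1.37, 97.1 and 82.8 CPM in sham, and did not pass. Cx3cr1, the fractalkine receptor (mm10 chromosome 9, 119901616 to 120069879, minus strand), fell from 12857, 7363 and 5035 CPM to 840, 474 and 217 CPM (−4.04 ± 0.50, adjusted p = 3.6e-05, −3.28 with GC offsets). It kept its call in 15 of 15 settings. Csf1r, the receptor that sustains microglia, was at 227, 161 and 4.48 CPM against 16266, 4860 and 2965 CPM (−5.94 ± 1.00, adjusted p = 0.00057), with 1 hemorrhage library far below the other two, and −3.68 with offsets. Tmem119 was at 701, 311 and 892 CPM against 9528, 4457 and 7771 CPM (−3.51 ± 0.74, adjusted p = 0.0032), and this call was lost with GC offsets (−0.71). Of the 20 homeostatic genes, 7 fell (35%, against 12.7% of all tested genes) and 1 rose (5%, against 1.7%), with a median of −1.49, while without sham replicate 1 the counts were 7 and 2. With GC offsets 8 fell and 1 rose, when P2ry12 was among the falls and Cst3 was the riser. The others that fell were Sparc (−3.40), Olfml3 (−1.80), Selplg (−2.68) and Golm1 (−2.82), of which Olfml3 was lost with GC offsets (−0.26) and Selplg without hemorrhage replicate 2. The riser was Gpr34, a lysophospholipid receptor of low GC content, at 6835, 9049 and 9302 CPM against 2625, 1442 and 2592 CPM (1.92 ± 0.34, adjusted p = 0.0009), with −0.28 under GC offsets.

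Of 18 transcription factors of the lineage, 7 fell (38.9%) and none rose, with a median of −3.38, and 8 and none did so with GC offsets. Over all tested genes 12.7% fell and 1.7% rose. Among the 11 that did not pass, Maf (1.06), Bhlhe40 (6.30) and Tfec (5.02) had positive fitted values and Mef2c stood at −0.06. Irf8, which directs microglial development, was at 144, 67.5 and 105 CPM after hemorrhage and 3036, 795 and 924 CPM in sham (−3.91 ± 0.60, adjusted p = 0.00025, −2.52 with GC offsets). The groups were separate and the call was kept in 15 of 15 settings. Irf5 fell to 0, 3.27 and 0.252 CPM from 958, 410 and 169 CPM (−8.76 ± 1.61), and Cebpa and Tcf12 fell by 11.10 and 8.32, in both cases to under 1 CPM. Spi1, which encodes PU.1, was at 187, 2.03 and 141 CPM against 1439, 401 and 546 CPM, separate but not past the threshold (−2.86 ± 1.01, adjusted p = 0.057).

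TGF-beta genes gave 5 falls (33.3%, against 12.7% of all tested genes) and no rise among 15 tested (median −4.48), 3 and none with GC offsets. Tgfbr2, the ligand-binding receptor chain, was at 0, 0.733 and 0.631 CPM after hemorrhage and 1404, 75.5 and 40.2 CPM in sham (−10.11 ± 1.82, adjusted p = 0.00098), kept in 15 of 15 settings. Nrros, which presents latent TGF-beta on microglia, fell by 3.90 ± 1.09, and Itgb5, an integrin that can release it, by 3.66 ± 0.98, both lost with GC offsets (−1.86 and −1.02). Nrros was also lost without sham replicate 1 (−2.37) and Itgb5 without hemorrhage replicate 1 (−3.53). Ski, a repressor of the pathway, fell by 8.50, and Bmpr2, a receptor of the related bone morphogenetic proteins, by 4.63 from at most 6.16 CPM, a call lost when any of the hemorrhage libraries or sham replicate 1 was left out.

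The 12 largest falls were to 0 or nearly 0. Eva1a, a regulator of autophagy, had no count after hemorrhage and 629, 45.7 and 43.6 CPM in sham, at least 3930-fold lower in the mean with 3 counts per library in place of 0. Fig4, a phosphoinositide phosphatase (558, 102 and 16.9 CPM in sham, at least 3706-fold lower), and Ccdc22, an endosomal sorting protein (554, 59.3 and 52.1 CPM, at least 3643-fold lower), had no count after hemorrhage either. These folds compare means that rest mainly on sham replicate 1, and they do not hold for the other sham libraries taken singly. Lrch4 (172, 278 and 199 CPM in sham), Fen1, a flap endonuclease (770, 29.6 and 21.5), Poldip3 (655, 0.632 and 9.23), Nup214, a nuclear pore protein (507, 89.2 and 19.2), and Snrk (836, 53.4 and 9.83) had counts in 1 hemorrhage library. Zfp69, Csnk1d and Pnpla2, a triglyceride lipase, had counts in 2. In each of those named here but Lrch4, sham replicate 1 was the highest sham library, and it is also the library with the most commonly expressed genes under 5 CPM. Snrk was lost without hemorrhage replicate 1 (adjusted p = 0.061), hemorrhage replicate 3 (0.064) or sham replicate 1 (0.066), within 1e-09 to 0.15, and the others named here kept their calls in all 15 or 14 settings. Strand use in counting is not given in the sources used here. Ccdc22, Lrch4 and Fen1 share 2957, 3029 and 1909 exon bases with a neighbouring gene model, so reads cannot be told apart there. The same holds for 873 exon bases of Csf1r, 411 of Irf5, 808 of Ctsd, 1297 of Golm1 and 1742 of Ctsl.

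Lysosomal and complement genes depended on the GC setting. Of 30 lysosomal genes, 3 rose (10%) and 12 fell (40%) as counted (median −1.38), and 1 and 3 with GC offsets (−0.14), against 1.7% and 12.7% of all tested genes as counted. Laptm5, a lysosomal membrane protein of blood cells, fell from 11658, 3292 and 2288 CPM to 337, 401 and 348 CPM (−3.99 ± 0.59, adjusted p = 0.00017) and was still called with offsets (−1.30). Grn, the precursor of progranulin, fell by 3.80 ± 0.55, Psap, the precursor of the saposins, by 2.60 ± 0.53 and Hexa by 2.48 ± 0.39, with −1.13, −0.28 and −0.13 under offsets, none of them called. Ctsd, an aspartyl protease, was at 7739, 4470 and 6188 CPM against 51754, 12108 and 25160 CPM (−2.27 ± 0.50, adjusted p = 0.0044), and 0.28 with offsets. Tfeb, the transcription factor that controls lysosomal genes, fell by 12.96 to at most 0.0631 CPM and was called in 14 of 14 settings. The risers were Ctsc (2.47), Ctsl (1.94) and Lamp2 (1.94), all of low GC content, with 0.76, 0.65 and −0.14 under offsets. Of 22 complement and phagocytosis genes, 2 rose (9.09%) and 5 fell (22.7%) (median −1.25), 2 and 1 with offsets, 1 and 9 with DESeq2 size factors, and 3 and 4 without sham replicate 1. The C1q chains, which tag synapses and debris, fell together: C1qa was at 2652, 1534 and 1554 CPM against 12393, 5755 and 9746 CPM (−2.28 ± 0.40, adjusted p = 0.00083), and C1qb and C1qc fell by 2.26 and 2.16. With offsets the 3 values were 0.62, 0.43 and 0.53. Gas6, a bridging ligand for uptake of dying cells, fell by 9.57 ± 1.79 and was kept in 15 of 15 settings. The risers were C3ar1, a complement peptide receptor (1.91 ± 0.36), and Fcgr2b, the inhibitory Fc receptor (1.26 ± 0.32), both lost with offsets.

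Heme, iron and lipid genes handle products of lysed red cells and damaged membranes. Of 21 heme and iron genes none rose and 2 fell (9.52%, near the 12.7% of all tested genes, of which 1.7% rose), with a median of −0.78. The 2 were Slc48a1, a heme transporter, and Aco1, the iron regulatory protein, both with sham values that overlapped the hemorrhage values, and with GC offsets 2 rose and none fell. Without sham replicate 1, 3 rose and 2 fell. Slc48a1 was lost without any 1 of the hemorrhage libraries or sham replicate 3 (−1.16), and Aco1 without hemorrhage replicate 1 or 3 (adjusted p = 0.074 and 0.079, within 1.4e-07 to 0.079). Hmox1, the heme-degrading enzyme, was at 1.43, 56.4 and 0.673 CPM against 9.19, 65.9 and 31.3 CPM (−0.86 ± 1.10, adjusted p = 0.58), and 1.01 with offsets. The ferritin light chain Ftl1 was at 4743, 2820 and 4567 CPM against 9066, 3094 and 8742 CPM (−0.78 ± 0.37, adjusted p = 0.15), called higher with offsets at 2.00, and its many processed copies in the genome make its counts uncertain. The heavy chain Fth1 was at 5198, 8719 and 9086 CPM against 9669, 3073 and 5176 CPM (0.36 ± 0.32, adjusted p = 0.4), −0.25 with DESeq2 size factors, and called higher with offsets (1.05). Of 25 lipid genes, 4 rose (16%, against 1.7% of all tested genes) and 3 fell (12%, against 12.7%), with a median of −0.91. The counts were 6 and 3 with offsets, 3 and 6 with DESeq2 size factors, and 3 and 6 without sham replicate 1. Fabp5, Msr1, Cd36, a fatty acid translocase, and Ch25h, a cholesterol hydroxylase, rose, but Cd36 was lost without hemorrhage replicate 3 or any sham library, and Ch25h, above 1.61 CPM in 1 library, was lost without hemorrhage replicate 3 or any sham library. Hmgcs1, an early enzyme of cholesterol synthesis, Plin3, a lipid droplet protein, and the sterol receptor Nr1h2 fell, the last of them lost without hemorrhage replicate 1 or 3 or sham replicate 3. Apoe, the lipid carrier, was at 4315, 3619 and 5338 CPM after hemorrhage and 8090, 2945 and 2853 CPM in sham, overlapping (−0.07 ± 0.46, adjusted p = 0.98). With GC offsets its value was 2.91 and was called, and without sham replicate 1 it was 0.61.

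Of 19 Nrf2 targets and partners 1 rose (5.26%) and 3 fell (15.8%), with a median of −0.30, and 2 and 2 did so with offsets. Over all tested genes 1.7% rose and 12.7% fell, so the falls of these genes stand near the share over all genes. Prdx1, a peroxidase, rose by 1.78 ± 0.52, and Keap1, the Nrf2 inhibitor, Txnrd1, a thioredoxin reductase, and Slc3a2, a subunit of the cystine transporter, fell by 9.21, 8.56 and 3.02. Prdx1 and Slc3a2 were lost with offsets, and Prdx1 without hemorrhage replicate 1 (1.54) or sham replicate 2 (1.38) or 3 (1.76). Of 13 alternative-activation genes Msr1 rose (7.69%), and Stat6, Socs3 and Il10ra fell (23.1%) (median 0.05, which is −0.32 with DESeq2 size factors), 1 and 2 with GC offsets. Stat6, which relays interleukin-4, fell from 446, 91.5 and 55.3 CPM to under 0.4 CPM. Socs3, at no count after hemorrhage, was at least 109-fold lower, and Il10ra was lost without hemorrhage replicate 1 (−2.09) or 2 (−2.54) or sham replicate 1 (−1.20). Of 12 genes that sense or use short-chain fatty acids, products of gut bacteria that germ-free mice lack, none rose and 3 fell (25%, against 12.7% of all tested genes), with a median of −1.78, and 1 and 3 did so with offsets. They were Slc16a3, a monocarboxylate transporter, and the acetyl-CoA synthetases Acss1 and Acss2, all under 1 CPM after hemorrhage. Acss1 was lost without hemorrhage replicate 3 (−7.19), and Acss2 without hemorrhage replicate 1 or 3 or sham replicate 1 (−5.86). The receptor Hcar2 was at 131, 0.357 and 200 CPM against 0.564, 0.349 and 9.62 CPM and did not pass (4.97 ± 1.72, adjusted p = 0.053), though it was called with offsets (5.88), and Ffar2 and Ffar3 were too low to be tested.

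Genes for respiration lie in the mitochondrial and the nuclear genome. Of 13 mitochondrial-genome genes 10 rose (76.9%, against 1.7% of all tested genes) and none fell (median 1.81), 5 and none with DESeq2 size factors, in step with the share of mitochondrial counts given above, and none was called with GC offsets (median −0.28). mt-Nd1, a complex I subunit, was at 2650, 3935 and 4996 CPM against 644, 901 and 799 CPM (2.30 ± 0.36, adjusted p = 0.00028), 0.25 with offsets. Of 24 nuclear oxidative-phosphorylation genes none rose and 4 fell (16.7%, near the 12.7% of all tested genes), while 7 rose and 3 fell with offsets, and the median of 0.39 was −0.11 with DESeq2 size factors. The falls included Uqcrc1, a complex III core protein (−4.13), Atp5b, a subunit of ATP synthase (−2.10), and Sdha of complex II (−3.94), the first 2 of them lost with offsets, and 2 of the 4 falls were called without sham replicate 1. Atp5b was lost without hemorrhage replicate 1 (−1.68) or sham replicate 1 (−0.98), and Sdha without hemorrhage replicate 2 or sham replicate 1. Cytosolic ribosomal proteins gave 11 rises (13.1%) and no fall among 84 tested (median 1.29), but 5 rises and 1 fall with DESeq2 size factors (median 0.73). The counts were 33 and none with GC offsets and 19 and none without sham replicate 1. Rps7 was at 586, 568 and 427 CPM against 33.6, 99.6 and 142 CPM (2.52 ± 0.53, adjusted p = 0.0029), kept in 15 of 15 settings. Rps27a (2.41), Rps3a1 (1.82), Rps24 (3.41) and Rpl27a (3.15) rose, but Rps27a, Rps24 and Rpl27a were lost with offsets, and the last 2 without hemorrhage replicate 3 or sham replicate 2. Processed copies of these genes make single values uncertain.

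Immediate early genes, which neurons and microglia induce within minutes and which also respond to tissue dissociation, gave 8 falls (38.1%, against 12.7% of all tested genes) and no rise among 21 (median −4.59), 4 and none with GC offsets. Fos was at 1.22, 2.97 and 2.25 CPM after hemorrhage and 1035, 1175 and 69.5 CPM in sham (−8.47 ± 1.61, adjusted p = 0.0016). Egr1 and Dusp1 fell by 9.23 and 8.93, in both cases to under 5 CPM, and Jun fell by 4.59 ± 1.11, at 81, 6.09 and 257 CPM against 4543, 2468 and 1291 CPM. Fos, Egr1 and Dusp1 were still called with offsets and Jun was not (−2.20). Of 25 cell-cycle genes 1 rose (4%) and 6 fell (24%) (median −0.10), 1 and 3 with offsets. H2afz, a histone variant, rose by 1.27 ± 0.43 at the edge of the threshold and was lost without any library except sham replicate 1. Mcm3, a replication helicase subunit, fell by 7.43, Tuba1b, a tubulin, by 2.07 (−0.77 without sham replicate 1, 0.54 with offsets), and Aurkb, a mitotic kinase, was at least 40.9-fold lower from at most 7.00 CPM in sham, lost without any hemorrhage library or sham replicate 3. Of 21 glycolysis and hypoxia genes 2 rose (9.52%) and 6 fell (28.6%) (median −3.03, or −2.16 with absent genes at their bound), 2 and 2 with offsets. Hif1a, the hypoxia factor, rose by 2.27 ± 0.74 with overlapping groups and Bnip3, its mitophagy target, by 2.70 ± 0.75, both lost with offsets. Hif1a was also lost without hemorrhage replicate 2 (1.65) or 3 (2.36) or sham replicate 2 (1.81) or 3 (1.84), and Bnip3 without hemorrhage replicate 2 (2.00). Pfkl, a rate-limiting enzyme of glycolysis, fell by 9.28 ± 1.73 to under 1 CPM, and Aldoa by 3.03 ± 0.60, the latter lost with offsets (−0.18).

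**Figure D4:**
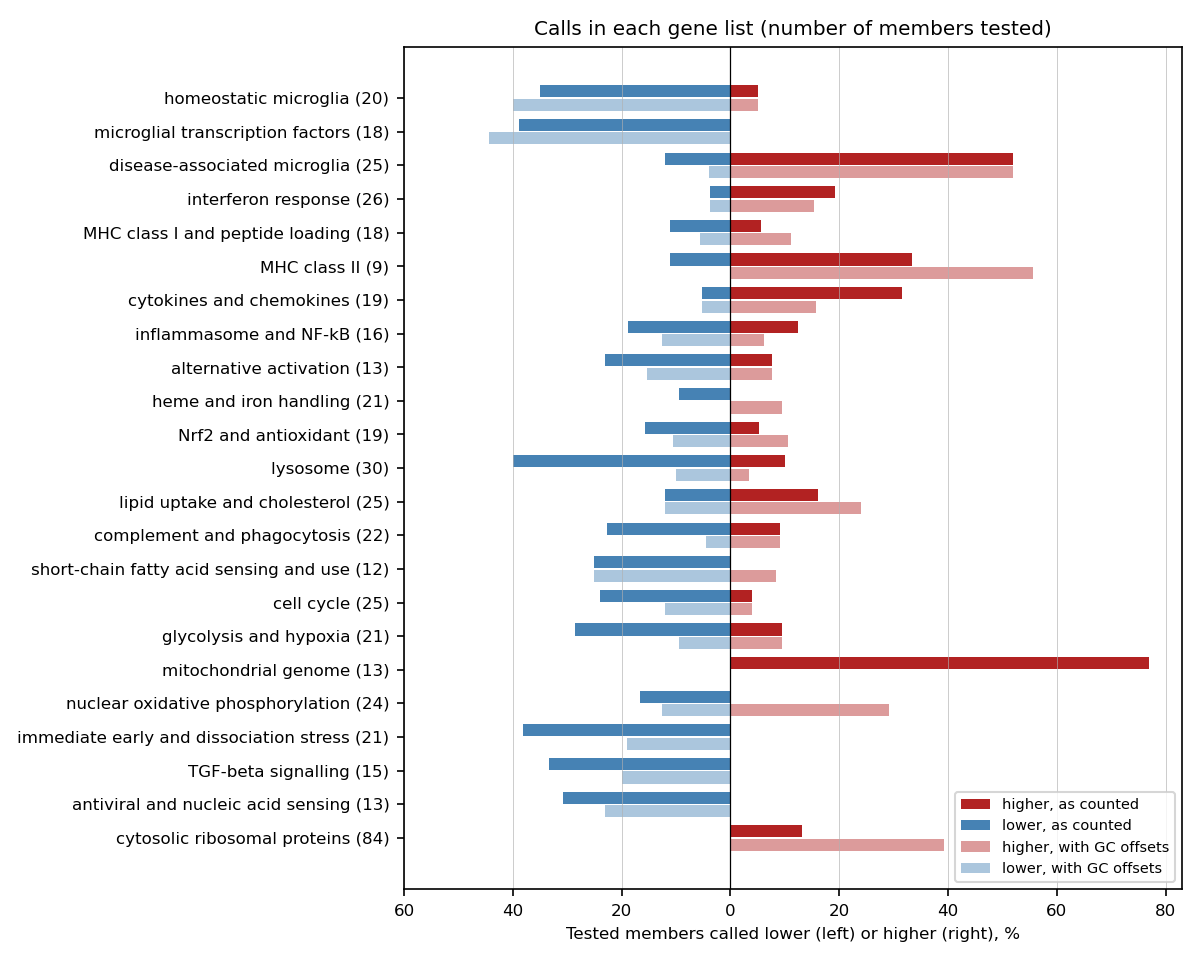
Percent of the tested members of 23 gene lists called lower (left of 0) and higher (right of 0) in GF ICH day 7 against GF sham, as counted and with GC offsets. Disease-associated genes have 13 of 25 members higher in both settings, whereas the 10 calls among 13 mitochondrial-genome genes are absent with offsets.

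The response was then set against the day 7 responses of SPF and ABX mice, as the difference between the log2 fold changes in 1 fit. Compared with SPF mice the GF response was more positive in 50 genes (0.285%) and more negative in 1188 (6.76%), and compared with ABX mice in 52 (0.296%) and 702 (3.99%). Both contrasts use the same 6 GF libraries and are not independent. With GC offsets the counts of more negative genes were 598 and 533. The counts moved with single GF libraries. With sham replicate 1, 2 or 3 left out, the positive count against SPF was 113, 25 or 204, and with hemorrhage replicate 3 left out the counts were 20 positive and 768 negative. Against ABX, leaving out sham replicate 1, 2 or 3 gave 31, 34 or 295 positive genes, and leaving out hemorrhage replicate 2 gave 108 positive and 1193 negative. The ABX ICH day 7 libraries also had 2.46% to 21.9% of common genes under 5 CPM and GC trends of −1.43 to −0.82.

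The rise of Spp1 was of similar fitted size in the 3 conditions. It was 7.64 ± 0.73 in GF, 7.76 ± 0.73 in SPF and 8.77 ± 0.76 in ABX mice, with a difference of −0.13 ± 0.77 from SPF and −1.13 ± 0.77 from ABX, neither past the threshold. Igf1 (differences 0.34 ± 1.13 and −0.90 ± 1.14), Lilrb4a (0.16 ± 0.95 and −0.62 ± 0.95) and H2-Aa (0.86 ± 1.34 and −1.57 ± 1.35) did not differ past it either, with errors that leave room for differences of several fold. Clec7a rose more in GF than in SPF mice, 6.95 against 3.94 (difference 3.01 ± 0.89, adjusted p = 0.043), but not past the threshold with GC offsets (1.11).

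Apoe rose in SPF and ABX mice, and its value in GF mice depended on the setting. The GF response was −0.07 ± 0.46 and not past the threshold as counted, 0.61 without sham replicate 1, and 2.91 and called with GC offsets. In SPF mice it was at 437 ± 241 CPM in sham and 29935 ± 10460 CPM after hemorrhage (SD, n = 3), in ABX mice at 422 ± 56.9 and 12521 ± 8591 CPM, and in GF mice at 4629 ± 2997 and 4424 ± 865 CPM. The GF sham level was thus above both other sham levels and the GF hemorrhage level below both others. The response was 6.10 ± 0.58 in SPF and 4.89 ± 0.55 in ABX mice, and the GF difference was −6.16 ± 0.71 from SPF (adjusted p = 6.5e-05) and −4.96 ± 0.69 from ABX (adjusted p = 0.00032). With GC offsets the differences were −3.01 and −2.54 and both were still called. Ftl1 responded by 2.28 ± 0.39 in SPF and 2.01 ± 0.39 in ABX mice, with GF differences of −3.07 ± 0.54 and −2.80 ± 0.54 (adjusted p = 0.0022 and 0.0056), but −0.06 and −0.64 with offsets, not called.

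Of the 20 homeostatic genes, 3 responded more negatively and 2 more positively in GF than in SPF mice, and 5 and none against ABX mice. Of the 18 transcription factors, 6 responded more negatively than in SPF and 3 than in ABX mice, and none more positively in either contrast. Over all tested genes 6.76% and 3.99% were more negative. Cx3cr1 responded by −0.80 ± 0.44 in SPF and −1.25 ± 0.45 in ABX mice, with GF differences of −3.24 ± 0.64 and −2.79 ± 0.63 (adjusted p = 0.0049 and 0.014), called with GC offsets as well (−2.47 and −2.09). Irf8 responded by −0.06 ± 0.53 and 0.09 ± 0.53, with differences of −3.85 ± 0.78 and −4.00 ± 0.78 (adjusted p = 0.006 and 0.0059), also called with offsets (−2.38 and −2.92). Csf1r differed by −5.59 ± 1.22 and −5.92 ± 1.22 (adjusted p = 0.0093 and 0.0083), and with offsets the difference from SPF was not called (−3.12). Tgfbr2 differed by −9.65 ± 2.05 and −10.12 ± 2.07 (adjusted p = 0.008 for both), both called with offsets. Usp18 responded by 2.98 ± 1.32 in SPF, 4.40 ± 1.40 in ABX and −7.43 ± 1.62 in GF mice, differences of −10.41 ± 2.07 and −11.82 ± 2.14 (adjusted p = 0.0055 and 0.0036). Among the 30 lysosomal genes 13 responded more negatively than in SPF and 12 more negatively than in ABX mice, and of 25 disease-associated genes 6 and 5, against 6.76% and 3.99% of all genes. P2ry12 and Gpr34 went the other way against SPF (1.83 ± 0.50 and 2.51 ± 0.47, adjusted p = 0.032 and 0.0037), with −0.42 and 0.21 under offsets, not called. The list counts in this paragraph are without GC offsets. Over abundant genes the difference and GC content were related at a Spearman rho of −0.58 against SPF and −0.40 against ABX. The falls of the lysosomal list within GF mice went from 12 to 3 with offsets.

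**Figure D5:**
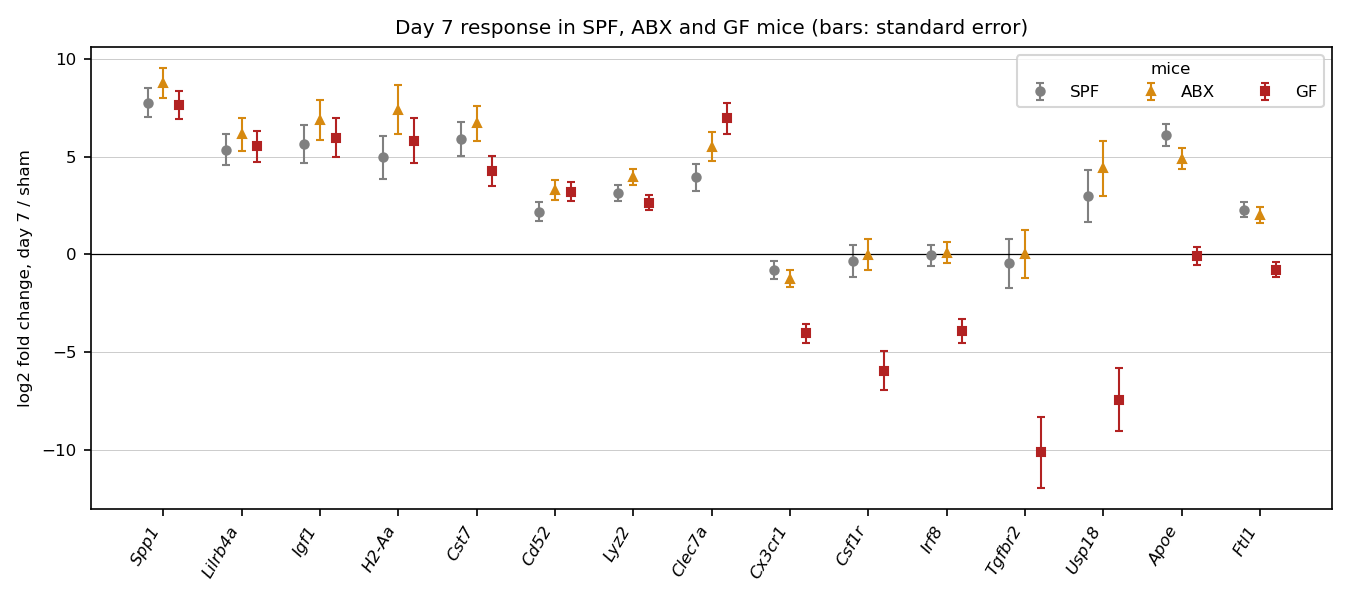
Log2 fold change at day 7 against sham with its standard error for 15 genes in SPF, ABX and GF mice. Spp1 lies between 7.64 and 8.77 in the 3 conditions, whereas Apoe is at 6.10, 4.89 and −0.07 and Cx3cr1 at −0.80, −1.25 and −4.04.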

How the data were processed

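The data are gene counts of 27 libraries in 9 groups, 3 libraries a group. Per the labels' protocols, RNA of sorted cells was amplified with a SMART-Seq low-input kit and sequenced as paired reads. The deposited table holds raw counts per gene, made with cutadapt 1.9, HISAT2 2.0.4 and StringTie 1.3.4d on mm10, with edgeR also named, per the submitters' processing notes, which give no role or order. The annotation release and strand setting are not given in the sources used here. Symbols and exons came from GENCODE M21 for 52073 of 56691 identifiers, and the 4618 others held 1.27% of counts.

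Counts were fitted with edgeR 4.0.16 (quasi-likelihood, R 4.3.3) over all 27 libraries, with TMM scaling, filtering by expression, robust estimation and Benjamini-Hochberg adjustment over 17573 genes, and all adjusted p-values in the report are from that fit unless another tool is named. The common biological coefficient of variation was 1.54. Groups of 3 allow an exact permutation p no lower than 0.1, so no such p is given. DESeq2 1.42.0, limma 3.58.1 voom with quality weights, DESeq2 size factors, no count filter, abundant genes alone, a replicate block, GC offsets (1 natural spline in each library, 4 degrees of freedom, from 2238 abundant genes), each library left out, sham replicates 1 and 2 left out and the 6 libraries alone were alternatives. Scaling by library size alone was added after the data were seen. A fold against a group at 0 uses the mean of the other group and 3 counts per library. It is a bound on the counted means and not on the number of molecules. The steps were also run on simulated counts with known changes. Those counts had no GC trend and no loss of genes in single libraries. The simulation therefore cannot speak to the effect of either on the calls.

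Members and lists were chosen with earlier results of these data known. Genes were named by rule: the 12 largest rises and 12 largest falls among abundant genes that were called and did not overlap, without pseudogenes and unnamed models, up to 3 members with the smallest adjusted p per list, and a set of known microglial, iron, cytokine and fatty acid receptor genes. The other genes were named after their values were seen. A few genes that meet the rule are not reported here.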

Additional observations from a re-analysis of the deposited data

Results flagged for a closer look

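The day 7 response differed between GF and SPF mice in the test of the difference for 50 genes in the positive and 1188 in the negative direction, and between GF and ABX mice for 52 and 702. Of abundant genes with the most positive difference from SPF, Hist1h4d, a histone, had 4.35 on the log2 scale, Rnft1 had 4.11 and Spcs3, a signal peptidase subunit, had 4.06, all 3 with GF sham replicate 1 under 3 CPM and the other 2 GF sham libraries above 30 CPM. With GC offsets none of the 3 was past the threshold (2.25 for Rnft1, 2.33 for Spcs3 and 4.39 for Hist1h4d). Of those with the most negative difference, Dph2 had −18.89, Ccdc22 had −17.22 and Eva1a had −16.61. Dph2 was at 731, 0 and 7.43 CPM in GF sham, so its difference rests mainly on 1 library, and fitted values of genes at 0 after hemorrhage give no bound. Against ABX, Azin1 had 9.51, Gtpbp4 had 8.30 and Katna1, a microtubule-severing enzyme, had 7.20, where the ABX ICH day 7 libraries held 0.415 to 9.63 CPM. Azin1 and Katna1 were still called with GC offsets and Gtpbp4 was not. In the negative direction against ABX, Ccdc22 had −16.28 and Rad17, a checkpoint clamp loader, had −14.13. Groups of 3 were not examined for single outlying samples.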

How the results depend on the processing

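The count of higher genes, 298, was 197 with DESeq2 size factors, 198 with no filter, 157 without sham replicates 1 and 2, 48 with the 6 libraries alone, 855 with DESeq2, and 200 to 571 with 1 library left out. The count of lower genes, 2238, was 353 with abundant genes alone, 179 with the 6 libraries alone, 6077 with DESeq2, 926 with limma voom and 1394 to 2372 with 1 library left out. The GF minus SPF counts, 50 and 1188, were 17 positive with DESeq2 size factors, 10 with no filter, 356 and 4605 with DESeq2, 124 positive with voom, 598 negative with GC offsets, 217 negative with abundant genes alone, and 20 to 204 and 768 to 1556 with 1 library left out. The GF minus ABX counts, 52 and 702, were 34 positive with no filter, 33 with GC offsets, 22 and 164 with abundant genes alone, 9 positive without sham replicates 1 and 2, 351 negative with library size alone, an alternative chosen after seeing the data, 1173 and 3312 with DESeq2, 3 and 14 with voom, and 31 to 295 and 549 to 1193 with 1 library left out.

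Same-numbered libraries were not more alike than others: their deviations correlated at −0.030, −0.039 and 0.067, and those of differently numbered libraries at −0.096 to 0.083. With 3 libraries a group this cannot exclude a pairing. With a replicate block the counts were 243 and 1699 in GF, 28 and 741 for GF minus SPF, and 25 and 387 for GF minus ABX.

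With GC offsets the log2 fold change changed sign to 0.43 in C1qb, 0.62 in C1qa, 0.53 in C1qc, 0.54 in Tuba1b, −0.0525 in mt-Nd4, −0.15 in mt-Cytb, −1.31 in P2ry12, 1.96 in Cst3, 2.91 in Apoe, 1.01 in Hmox1, 2.00 in Ftl1, −0.28 in Gpr34, 0.28 in Ctsd and −0.14 in Lamp2. Apoe was at 0.0435 with library size alone, 0.63 without sham replicates 1 and 2, 0.16 with the 6 libraries alone and 0.49 with voom, and ran from −0.32 to 0.61 with 1 library left out. Fth1 was at −0.25 with DESeq2 and with its size factors. Tnf was at 0.85 without sham replicates 1 and 2. With 1 library left out Tnf ran from −15.68 to 1.79 (highest without sham replicate 1), Cd74 from −0.12 (without hemorrhage replicate 1) to 2.22, Ch25h from −0.33 (without hemorrhage replicate 3) to 7.14 and Ttr from −2.78 to 1.14 (highest without sham replicate 3). The cause of these changes was not tested.

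Of 149 named genes called as counted, 86 were not called in the same direction with the 6 libraries alone, 79 with voom, 53 without sham replicates 1 and 2 and 51 with GC offsets. Each library held at least 41664864 counts, but reads were amplified from very small inputs and the labels name no molecular identifiers, so the number of distinct molecules behind a count is unknown, and a gene at 0 was not detected at this depth rather than shown to be absent.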
